A study of Mus musculus with 1 sample.

Results

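The genes described here were 8 enzymes, carriers and transporters of androgen synthesis, *Star*, *Cyp11a1*, *Hsd3b1*, *Cyp17a1*, *Fdx1*, *Fdxr*, *Scarb1* and *Por*, taken by their symbols from the 22631 features of 1 single-cell RNA-sequencing library. The library was prepared from the control fetuses of a study of *Nr5a1*, the gene of the nuclear receptor also called SF1, in the fetal mouse testis. The sample label gives wild type (WT) and embryonic day E14.5, whereas the design text speaks of E13.5 and E14.5. According to the methods, the controls carried *loxP*-flanked alleles of *Nr5a1* and neither the Cre transgene nor the reporter, so the floxed alleles are part of every value below. The library combined cells of their 12 testes, which were dissociated with trypsin and EDTA. The fetuses had a mixed C57BL/6 and 129/SvPass background. The library made from testes with *Nr5a1* deleted in Sertoli cells was not analysed here, so no genotype was compared with another.

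In fetal Leydig cells, cholesterol is taken up from lipoproteins or made in the cell, is moved to the inner mitochondrial membrane and is cut there to pregnenolone by the side-chain cleavage enzyme. Pregnenolone is then oxidised and cleaved to androstenedione in the endoplasmic reticulum. *Scarb1* encodes a lipoprotein receptor that hands over cholesterol esters, and *Star* encodes the protein that brings cholesterol to the inner mitochondrial membrane. *Cyp11a1* encodes the side-chain cleavage enzyme, which receives its electrons from NADPH through ferredoxin reductase (*Fdxr*) and ferredoxin (*Fdx1*). *Hsd3b1* encodes the dehydrogenase and isomerase that converts pregnenolone to progesterone, and *Cyp17a1* encodes the 17-hydroxylase and lyase, which receives its electrons through P450 oxidoreductase (*Por*). In the fetal mouse testis the last reduction, from androstenedione to testosterone, is known to take place in Sertoli cells, which carry *Hsd17b1* and *Hsd17b3*.

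The library held 5421 barcodes, of which 3821 were kept after filters on detected genes, outlying barcodes and doublets. The kept cells held 54778183 unique molecular identifiers (UMIs, each one counted RNA molecule), with a median of 12078 UMIs per cell and a range of 2284 to 53657. The cells were clustered without the 8 genes and named only from markers that are not among them. This gave 1354 interstitial-like, 862 Sertoli-like, 527 peritubular myoid-like, 320 Leydig-like, 251 germ-like, 146 coelomic epithelium-like and 101 perivascular-like cells. Erythroid-like (36), immune-like (35), endothelial-like (19) and rete testis-like (19) cells were few, and 2 clusters of 89 and 62 cells were left unnamed. The Leydig-like class was made of cluster 8 (132 cells) and cluster 6 (188 cells), and in both of them 6 of 6 Leydig markers (*Insl3*, *Lhcgr*, *Prlr*, *Mgarp*, *Gramd1b* and *Ren1*) were detected in at least 25% of cells. Their markers lay on average 4.61 log2 units above the other clusters in cluster 8 and 2.07 log2 units above them in cluster 6. The defining markers of the testis were therefore present, and Sertoli-like, germ-like and Leydig-like cells were each found. With 1 library there is no replicate, so no difference was tested, and every interval below is an exact 95% interval that covers counting error only. A level is the number of UMIs of a gene per 1000000 UMIs of a class (CPM).

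The 8 genes lie at 8 places on 6 chromosomes of the mouse genome (GRCm38). *Star* spans chr8:25806555-25815982 on the plus strand. *Cyp11a1* spans chr9:58006411-58027023 on the plus strand and overlaps a long non-coding RNA gene, *Gm17322*, on the same strand, so UMIs of the pair may not be separable. *Hsd3b1* spans chr3:98852194-98859794 and *Cyp17a1* chr19:46667165-46673172, both on the minus strand. *Fdx1* spans chr9:51943306-51963556 and *Fdxr* chr11:115268024-115277050, also on the minus strand. *Scarb1* spans chr5:125277087-125341094 on the minus strand, where the unclassified gene *Gm42633* overlaps it on the same strand, and *Por* chr5:135670033-135735326 on the plus strand, where 2 non-coding genes overlap it on the other strand.

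Promoter windows of 300 bases, from 250 bases before to 50 bases after an annotated start, were held by the RefSeq table (GRCm38.p6) for 5 of the 8 genes, with 2 starts for *Cyp11a1*. The second window of *Cyp11a1* and those of *Hsd3b1* and *Fdx1* are printed because these genes had some of the most alike patterns over the cell clusters, and the window of *Fdxr* because its pattern differed from theirs. Capitals mark matches to AGATAA, 1 form of the letters bound by GATA factors, and to TCAAGG, the first letters of a site bound by NR5A1, on either strand. Other forms of the GATA letters were not searched and are not marked. The windows lie at chr9:58014702-58015001 (plus strand), chr3:98859745-98860044 (minus), chr9:51963553-51963852 (minus) and chr11:115276920-115277219 (minus).
Cyp11a1: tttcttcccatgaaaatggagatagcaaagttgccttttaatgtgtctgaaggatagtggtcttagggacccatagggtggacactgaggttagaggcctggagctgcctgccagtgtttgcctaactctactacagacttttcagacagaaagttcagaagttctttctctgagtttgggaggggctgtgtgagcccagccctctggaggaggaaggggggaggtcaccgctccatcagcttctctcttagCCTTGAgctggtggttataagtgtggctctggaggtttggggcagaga
Hsd3b1: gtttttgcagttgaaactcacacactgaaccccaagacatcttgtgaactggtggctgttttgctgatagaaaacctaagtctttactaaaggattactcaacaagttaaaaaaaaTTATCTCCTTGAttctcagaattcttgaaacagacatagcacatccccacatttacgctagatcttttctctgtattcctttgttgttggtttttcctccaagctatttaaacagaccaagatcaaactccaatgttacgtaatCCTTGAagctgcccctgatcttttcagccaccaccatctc
Fdx1: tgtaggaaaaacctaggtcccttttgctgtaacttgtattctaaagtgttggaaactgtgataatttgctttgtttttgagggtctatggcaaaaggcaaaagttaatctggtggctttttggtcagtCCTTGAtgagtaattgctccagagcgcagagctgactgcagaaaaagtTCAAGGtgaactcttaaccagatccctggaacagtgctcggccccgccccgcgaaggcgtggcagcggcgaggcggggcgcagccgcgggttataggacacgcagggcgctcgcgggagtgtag
Fdxr: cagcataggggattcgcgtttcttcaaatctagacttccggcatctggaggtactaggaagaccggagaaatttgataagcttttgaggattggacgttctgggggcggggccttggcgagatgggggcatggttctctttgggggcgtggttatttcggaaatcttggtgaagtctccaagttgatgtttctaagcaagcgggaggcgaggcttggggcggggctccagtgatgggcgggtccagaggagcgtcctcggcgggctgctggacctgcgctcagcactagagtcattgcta
The first letters searched, AAGGTCA (in 4.72% of the 32851 windows of the table), AAGGCCA (6.2%) and TATAAA (13.6%), were found in no window of the 8 genes. AGATAA (11.2% of all windows) was found in the window of *Hsd3b1*, on the reverse strand from base -134 to base -129 counted from the start. TCAAGG, which was searched after the other letters had been seen to give so few matches, is in 14.4% of all windows. It matched once in the second window of *Cyp11a1* and not in the first (chr9:57997774-57998073), 2 times in that of *Hsd3b1* and 2 times in that of *Fdx1*, and not in those of *Fdxr* and *Por*. The match of *Cyp11a1* (bases 3 to 8) and 1 of those of TCAAGG in *Hsd3b1* (bases 11 to 16) lie after the annotated start. Neither window of *Cyp11a1* covers the gene start given above, chr9:58006411, as the first lies before it and the second inside the gene. All matches describe the letters of the windows only.

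All 8 genes had their highest level in the Leydig-like cells, and for none of them did that interval overlap the next class or an unnamed cluster. Together the 8 genes made up 2.71% of the UMIs of Leydig-like cells and 0.0292% of the UMIs of all other kept cells. Leydig-like cells held 10.8% of all UMIs and 91.8% of the UMIs of the 8 genes. Every one of the 8 genes was at least 2-fold higher in Leydig-like than in all other cells, on CPM with 5 added to both sides, where 4.2% of 15106 measured genes were. None of the 8 was at least 2-fold lower, where 9.04% of measured genes were. At least 10-fold higher were 6 of the 8 genes (all but *Fdxr* and *Por*), against 0.338% of measured genes. The median ratio was 79.6 over the 8 genes and 0.8825 over all measured genes.

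**Figure D1:**
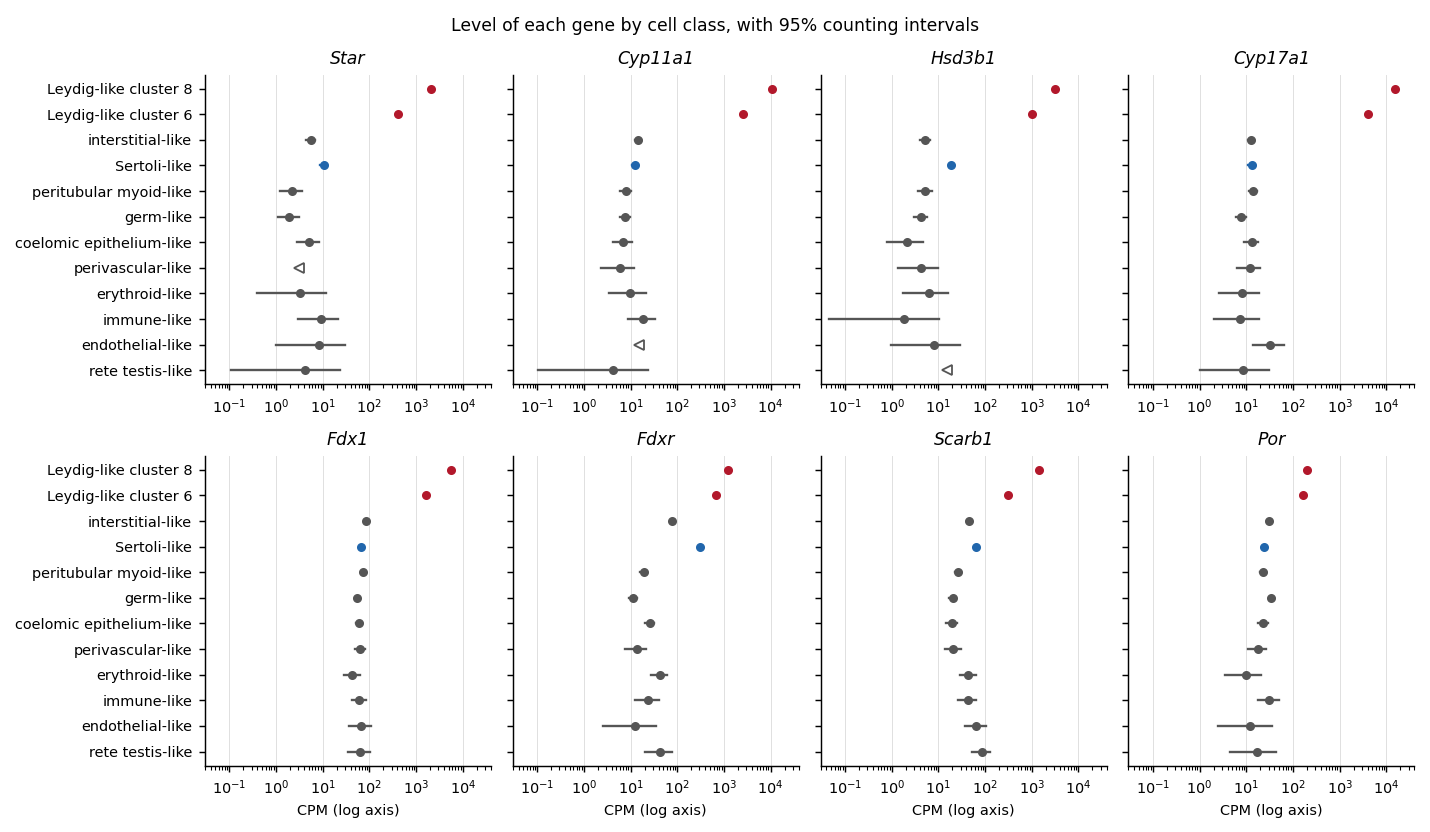
Level of each gene (CPM, log axis) in each cell class, with exact 95% Poisson intervals for counting error, in 1 control library. Each panel is 1 gene, and the Leydig-like class is drawn as cluster 8 and cluster 6. Both clusters lie to the right of every other class drawn in all 8 panels, by the smallest distance for *Fdxr*.

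Both genes of cholesterol supply were highest in the Leydig-like cells. *Scarb1* stood at 924 CPM (899.8–949) in Leydig-like cells and 20.6-fold above all other cells. Of the other named classes, the highest were rete testis-like (83.9 CPM), endothelial-like (65.3 CPM) and Sertoli-like cells (63.2 CPM, 58.9–67.6), whose intervals overlapped, and then interstitial-like cells at 44.3 CPM (40.8–48). Leydig-like cells held 73.6% of all *Scarb1* UMIs. *Star* stood at 1342 CPM (1312–1372) in Leydig-like cells, which held 96.5% of its UMIs, and 123-fold above all other cells. In Sertoli-like cells *Star* was at 10.7 CPM (8.95–12.6), and in interstitial-like cells at 5.51 CPM (4.32–6.91). No *Star* UMI was seen in the 101 perivascular-like cells, which leaves room for a level of up to 3.11 CPM (the upper end of the exact interval).

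The side-chain cleavage step differed between the enzyme and its electron carriers in how far it was shared with other classes. *Cyp11a1* reached 7226 CPM (7157–7294) in Leydig-like cells, 404-fold above all other cells, and 98.5% of its UMIs were there. No other named class rose above 18.3 CPM, the value of the 35 immune-like cells, which overlapped those of interstitial-like (14.5 CPM, 12.5–16.7) and Sertoli-like cells (12.4 CPM, 10.6–14.5). *Fdx1*, which carries electrons to mitochondrial P450 enzymes in many tissues, was at 3863 CPM (3814–3914) in Leydig-like cells and 51.3-fold above the rest. It was detected in every other named class, between 43.4 CPM in erythroid-like and 84.6 CPM (79.7–89.7) in interstitial-like cells. *Fdxr* was at 987 CPM (962–1012) in Leydig-like and at 313 CPM (303–323) in Sertoli-like cells, where 95.9% of cells had a UMI of it. Of all *Fdxr* UMIs, 51.3% were in Leydig-like and 35.5% in Sertoli-like cells. The next named class for *Fdxr* was interstitial-like at 77.4 CPM (72.8–82.3), and germ-like cells were lowest at 11.2 CPM (9.12–13.7). Within the interstitial-like class, *Fdxr* was at 90.8 CPM in cluster 1, 38.2 CPM in cluster 3 and 73.1 CPM in cluster 5, which was led by histone genes.

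The steps from pregnenolone to androstenedione followed the pattern of *Cyp11a1*. *Hsd3b1* stood at 2225 CPM (2188–2264) in Leydig-like cells, 164-fold above all other cells and with 96.9% of its UMIs there. Sertoli-like cells came second among the named classes at 18.8 CPM (16.5–21.3), and interstitial-like (5.13 CPM, 3.99–6.50) and germ-like cells (4.2 CPM, 2.95–5.78) lay below them without overlap. Reads of *Hsd3b1* and of related genes on chromosome 3 may not be fully separable by the counting. Of these genes, *Hsd3b6* had 0 UMIs in cluster 8 and 5 in cluster 6. It had 45 UMIs in all other kept cells, of which 9 were in Sertoli-like cells, the latter from 1 cell. *Cyp17a1* reached 10338 CPM (10256–10419.8) in Leydig-like cells, 583-fold above all other cells, and 99% of its UMIs were there. Among the other named classes its highest value, 32.7 CPM (14.1–64.4) in endothelial-like cells, rested on 8 UMIs. Peritubular myoid-like (14.2 CPM), Sertoli-like (13 CPM) and interstitial-like cells (12.6 CPM) did not differ beyond counting error.

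*Por*, which serves all P450 enzymes of the endoplasmic reticulum, was the gene of the 8 with the least unequal levels. It stood at 185 CPM (174–196) in Leydig-like cells, 5.9-fold above all other cells, and 45.2% of its UMIs were there. Germ-like (34.5 CPM, 30.7–38.6), immune-like (31.1 CPM) and interstitial-like cells (30.6 CPM, 27.7–33.7) overlapped each other, and Sertoli-like cells were at 23.9 CPM (21.3–26.8). *Cyb5a*, whose product supports the lyase reaction of CYP17A1, was at 394 CPM in Leydig-like and 204 CPM in all other cells, a ratio of 1.91, and stood at 337 CPM in Sertoli-like cells.

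The 2 Leydig-like clusters differed in level. Their border depends on the settings, since a clustering resolution of 0.4 gave 1 Leydig-like cluster of 316 cells. In cluster 8, *Star* was at 2076 CPM (2027–2125), *Cyp11a1* at 10915 CPM (10803–11028), *Hsd3b1* at 3194 CPM (3134–3255) and *Cyp17a1* at 15255 CPM (15122–15388). In cluster 6, *Star* was at 405 CPM (381–430.3), *Cyp11a1* at 2517 CPM (2456–2579), *Hsd3b1* at 989 CPM (951–1028) and *Cyp17a1* at 4062 CPM (3985–4141). Each of these genes was thus 3.22- to 5.07-fold higher in cluster 8. *Scarb1* stood at 1402 CPM (1362–1443) against 314 CPM (293–336), and *Fdx1* at 5589 CPM (5509–5670.4) against 1661 CPM (1612–1711). The differences were smaller for *Fdxr*, at 1241 CPM (1204–1279.8) against 662 CPM (631–694), and for *Por*, at 201 CPM (186–217) against 164 CPM (149–180.3). Of the 8 genes, 6 were at least 2-fold higher in cluster 8, against 4.2% of 11110 measured genes, and none was at least 2-fold lower, against 8.78%. Cluster 8 was also deeper, with a median of 21482.5 UMIs per cell against 13660, and its median mitochondrial share was 13.1% against 7.01% in cluster 6. The part of depth and mitochondrial share in the difference was not tested.

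Cluster 6 stood apart from the interstitial-like cells for the same genes. Against that class, 8 of 8 genes were at least 2-fold higher, where 3.9% of 12551 measured genes were, and none was at least 2-fold lower, where 4.88% were. The ratio was 39 for *Star*, 129 for *Cyp11a1*, 98.1 for *Hsd3b1* and 230.5 for *Cyp17a1*. It was 18.6 for *Fdx1*, 8.09 for *Fdxr*, 6.47 for *Scarb1* and 4.75 for *Por*.

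Over single cells, the values of *Cyp17a1*, *Cyp11a1*, *Star* and *Hsd3b1* started above 0 in cluster 8 and at 0 in cluster 6. *Cyp17a1* ranged in cluster 8 from 4789 to 25794 CPM of a cell, with a median of 15258, and in cluster 6 from 0 to 18643 CPM with a median of 1723. *Cyp11a1* ranged in cluster 8 from 3197 to 19802 CPM (median 10859) and in cluster 6 from 0 to 13628 CPM (median 824). *Star* ranged in cluster 8 from 483 to 4919 CPM (median 1995) and in cluster 6 from 0 to 6367 CPM (median 128), so that the highest cell of cluster 6 lay above the highest of cluster 8. *Hsd3b1* ranged in cluster 8 from 835 to 5899 CPM (median 3070.2) and in cluster 6 from 0 to 5926 CPM (median 580.1). Every cell of cluster 8 thus had these 4 genes, while at least 25% of the cells of cluster 6 read 0 for each of them.

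The carriers were found in more of the cells of cluster 6. *Fdx1* had a UMI in 94.1% and *Fdxr* in 98.4% of the cells of cluster 6, against 67 to 70.7% for *Star*, *Cyp11a1*, *Hsd3b1* and *Cyp17a1*. *Fdx1* ranged from 0 to 13037 CPM of a cell in cluster 6 (median 876) and from 2512 to 11858 CPM in cluster 8 (median 5275). *Fdxr* ranged from 0 to 2459 CPM in cluster 6 (median 566) and from 263 to 2584 CPM in cluster 8 (median 1252). *Scarb1* was detected in 82.4% of the cells of cluster 6 (median 184 CPM, highest 4021) and 99.2% of those of cluster 8 (median 1140.3 CPM, highest 3974). *Por* was detected in 78.2% of the cells of cluster 6 (median 118 CPM, highest 880.5) and 96.2% of those of cluster 8 (median 187 CPM, highest 714).

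**Figure D2:**
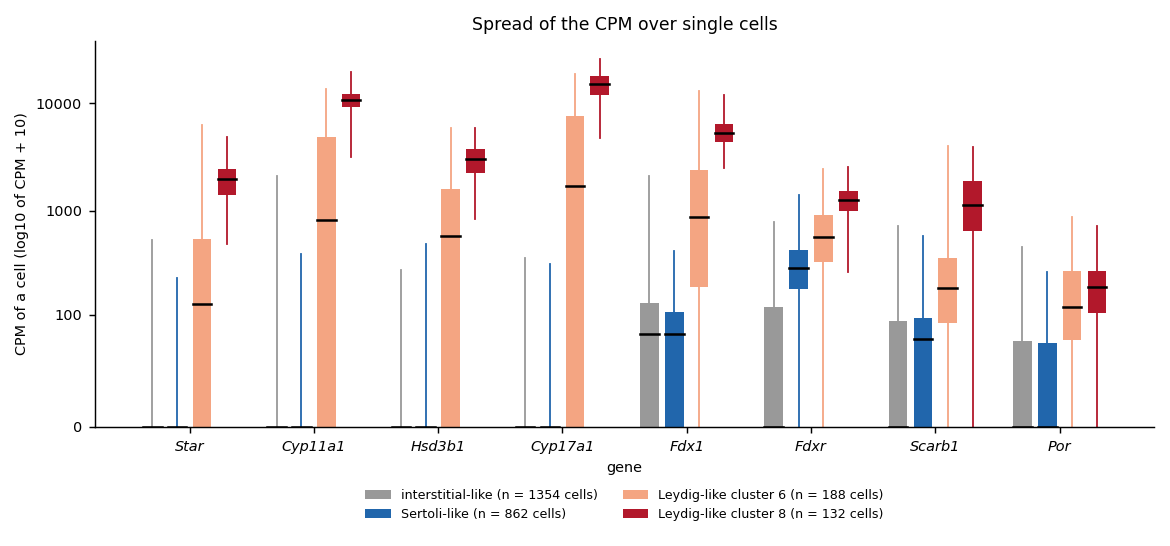
CPM of single cells (log10 of CPM + 10) for each gene in groups of cells of 1 control library, with the median and quartiles of each group. Cells of cluster 8 all lie above 0 except for *Scarb1* and *Por*, each of which reads 0 in at least 1 cell. Cells of cluster 6 spread from 0 into or beyond the range of cluster 8.

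Added together, *Star*, *Cyp11a1*, *Hsd3b1* and *Cyp17a1*, called the 4 core genes from here on, ranged from 16549 to 49931 CPM of a cell in cluster 8, with a median of 30445. In cluster 6 the sum ranged from 0 to 33962 CPM with a median of 3110 and quartiles of 151 and 14585. Of the 188 cells of cluster 6, 95 lay above 3000 CPM and 66 above 10000 CPM. The highest cells of cluster 6 thus lay within the range of cluster 8, and its lowest had none of the 4 genes.

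The 4 core genes were seen together in the same cell in 229 of 320 Leydig-like cells (71.6%, 66.3–76.4). They were together in 132 of 132 cells of cluster 8 and in 97 of 188 cells of cluster 6 (51.6%, 44.2–58.9), where 24 cells had none of them and 67 had 1 to 3. Outside the Leydig-like class they were together in 7 of 3501 cells (0.2%, 0.0804–0.412). Of these, 3 were in unnamed cluster 11, 2 were Sertoli-like, 1 was germ-like and 1 interstitial-like. Unnamed cluster 11 had a median of 3148.5 UMIs per cell and its nearest markers were those of Sertoli cells. As a pool it held *Star* at 83 CPM, *Cyp11a1* at 415 CPM, *Hsd3b1* at 70.5 CPM and *Cyp17a1* at 178 CPM, above every named class but the Leydig-like cells. These values came from few cells, since the 4 genes together read 0 in the median cell and at the upper quartile, passed 200 CPM in 12 of 62 cells and 3000 CPM in 3, and reached 26844 CPM in 1. *Fdx1* was at 311 CPM and *Fdxr* at 357 CPM (285–441) in the same cluster.

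Depth was then made equal by drawing 5000 UMIs from each cell, which left out 3 Leydig-like and 164 other cells with fewer. All 8 genes were detected in 120 of 317 Leydig-like cells (37.9%), in 79 of 130 cells of cluster 8 (60.8%) and in 41 of 187 cells of cluster 6 (21.9%). The median cell of cluster 8 showed 8 genes (range 6 to 8) and the median cell of cluster 6 showed 6 (range 0 to 8). Sertoli-like cells showed a median of 2 genes and at most 5, interstitial-like cells a median of 1 and at most 6, and germ-like cells a median of 0 and at most 3. The 4 core genes together were seen in 206 of 317 Leydig-like cells (65%), 76 of 187 cells of cluster 6 (40.6%) and 0 of 3337 other cells. That count describes thinned cells only, since 7 of the 3501 other cells had all 4 genes as read and 51 of the 62 cells of unnamed cluster 11 were too shallow to be thinned.

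**Figure D3:**
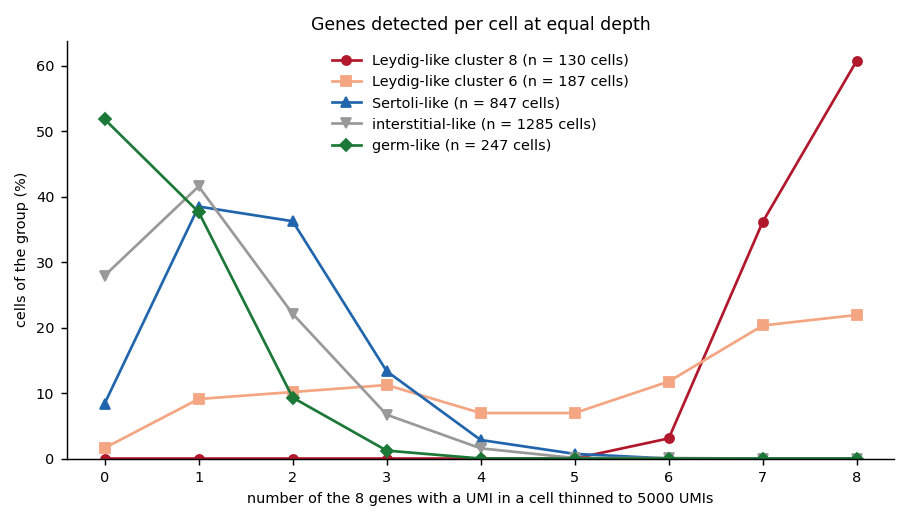
Share of cells (%) by the number of the 8 genes with a UMI, after each cell was thinned to 5000 UMIs, in 1 control library. Cluster 8 lies between 6 and 8 genes, cluster 6 runs over the whole axis, and the Sertoli-like, interstitial-like and germ-like cells lie mostly at 0 to 2 genes.

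Pairs of genes were detected together in cluster 6 to different degrees. *Cyp11a1* and *Cyp17a1* were both seen in 103 of the 187 thinned cells (55.1%), where the product of their separate shares is 37.2%. *Cyp11a1* alone was seen in 9 cells, *Cyp17a1* alone in 13 and neither in 62. *Fdx1* and *Fdxr*, whose products act in the same electron chain, were both seen in 135 cells (72.2%, product 69.8%). *Scarb1* and *Por* were both seen in 64 (34.2%, product 31.5%). In Sertoli-like cells *Fdx1* and *Fdxr* were both seen in 181 of 847 cells (21.4%, product 21.7%).

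The levels varied together over the cells of cluster 6 and hardly over those of cluster 8. Pearson's r was taken as a description, on log2 of the thinned counts with 1 added, over cells that share 1 library. Over the 187 cells of cluster 6, r of the 28 pairs ran from 0.219 for *Scarb1* and *Por* to 0.947 for *Cyp11a1* and *Cyp17a1*, with a median of 0.509. Over the 130 thinned cells of cluster 8 it ran from -0.0317 for *Fdx1* and *Por* to 0.538 for *Cyp11a1* and *Cyp17a1*, with a median of 0.101. Spearman's rho had medians of 0.527 in cluster 6 and 0.111 in cluster 8. These correlations are over cells at equal depth, and cells of 1 library are not replicates. At that depth some counts are low, and *Por* was detected in 83 of the 130 cells of cluster 8. The clusters also differ in range, as the sum of *Star*, *Cyp11a1*, *Hsd3b1* and *Cyp17a1* starts at 0 CPM in cluster 6 and at 16549 CPM in cluster 8. The part of counting noise and of range in the lower r of cluster 8 was not tested.

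The cells of cluster 6 were next laid out in 3 groups by their UMIs of the 4 core genes after thinning, 63 cells with 0 to 2, 62 cells with 2 to 51 and 62 cells with 56 to 178. The lower limit fell among cells that all had 2 core UMIs, 4 of them below it and 10 above it, so that these groups are ranges of one scale and not cell types. Median depth was 12909, 14175 and 14168 UMIs. The other 4 genes, which took no part in the grouping, were each lowest in the lowest group. The share of all measured genes that were lowest in that group was not computed, so this order is not read as particular to them. *Fdx1* was at 209, 1066 and 3617 CPM from the lowest to the highest group, against 84.6 CPM in interstitial-like cells and 5589 CPM in cluster 8. *Fdxr* was at 332, 655 and 982 CPM and *Scarb1* at 112, 209.8 and 610.1 CPM. *Por* was at 53.2, 169 and 265 CPM (232–301), the last of which lay above its 201 CPM (186–217) in cluster 8. In the lowest group the interval of *Fdxr* (295–373) lay above its 77.4 CPM in interstitial-like cells and held its 313 CPM in Sertoli-like cells.

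Markers of other states ran along the same axis. *Insl3*, a Leydig hormone, was at 28.4, 191 and 607 CPM from the lowest to the highest group and at 673 CPM in cluster 8, and *Lhcgr*, the luteinizing hormone receptor, at 29.6, 118 and 325 CPM against 344 CPM. *Nr5a1* was at 85.1, 188 and 255 CPM, against 25.9 CPM in interstitial-like cells and 262 CPM in cluster 8. *Insl3* and *Lhcgr* are among the markers that named the Leydig-like class. Most interstitial markers were highest in interstitial-like cells, which were named from them, and lower along this axis. The share of all measured genes that ran in either way was not computed, so these orders are not read as particular to the markers. *Nr2f2*, the gene of the nuclear receptor COUP-TFII, was at 369, 220.1 and 74.7 CPM, against 607 CPM in interstitial-like cells and 48.4 CPM in cluster 8. *Pdgfra* was at 176, 64.2 and 4.53 CPM, and *Tcf21* at 141, 42.4 and 19.2 CPM. *Maf* was at 84, 48.2 and 61.1 CPM and *Wnt5a* at 63.9, 32.1 and 24.9 CPM, with 77 CPM (67.9–87.1) of *Wnt5a* in cluster 8, so that these 2 did not fall at every step, although both were lower throughout than in interstitial-like cells (223 and 306 CPM). The division genes *Mki67* (177, 139.9 and 2.26 CPM) and *Top2a* (287, 332 and 10.2 CPM) were high in the lowest and middle groups and low in the highest group and in cluster 8 (1.81 and 13.2 CPM). *Nppc*, which led cluster 6, was at 31.9, 269 and 1097 CPM and at 299 CPM in cluster 8. How much of each value comes from mixtures of cells in 1 droplet was not tested.

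**Figure D4:**
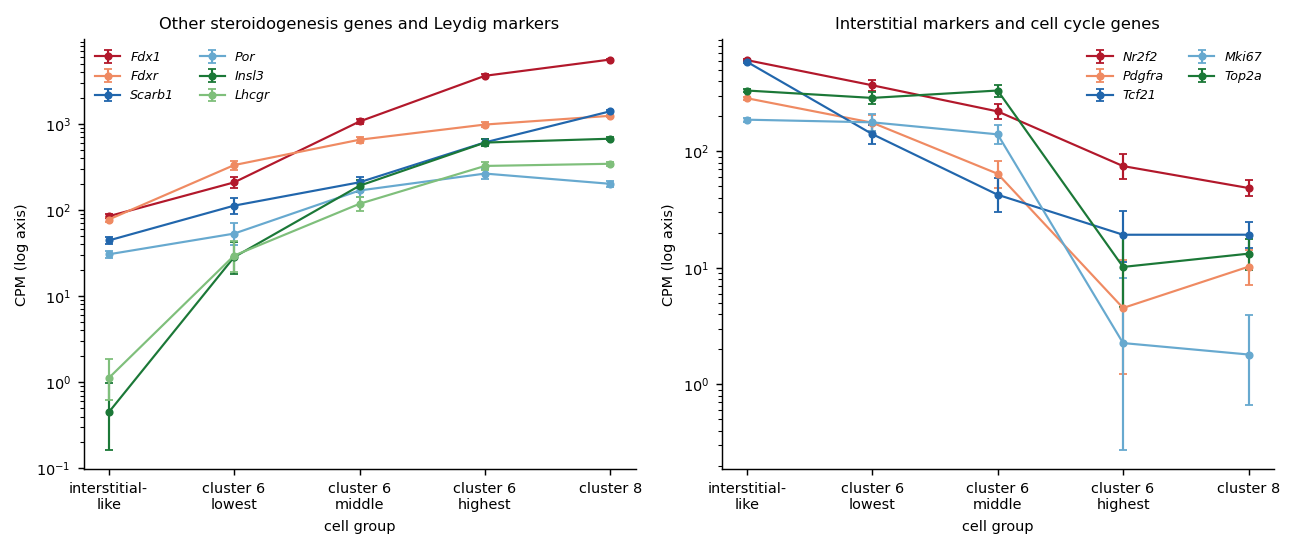
Levels (CPM, log axis, with exact 95% Poisson intervals) in interstitial-like cells, in the lowest, middle and highest groups of cluster 6 by core-gene UMIs, and in cluster 8. *Fdx1*, *Fdxr* and *Scarb1* climb from left to right, *Por* is highest in the highest group of cluster 6, and *Nr2f2*, *Pdgfra* and *Tcf21* fall from the interstitial-like cells to the highest group of cluster 6.

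Low counts of the 4 core genes were found in every other class, and their make-up was set beside that of the Leydig-like cells. The part of RNA free in the suspension in these counts was not tested. These proportions are of UMIs and are not divided by gene length. In cluster 8 the 104498 core UMIs were 6.6% *Star*, 34.7% *Cyp11a1*, 10.2% *Hsd3b1* and 48.5% *Cyp17a1*, and in cluster 6 the 20766 core UMIs were 5.08%, 31.6%, 12.4% and 50.9%. The 45 core UMIs in 372 barcodes with fewer than 200 genes were 8.89% *Star*, 31.1% *Cyp11a1*, 22.2% *Hsd3b1* (11.2–37.1) and 37.8% *Cyp17a1*. Of the UMIs of those barcodes, 46.8% were of hemoglobin genes and 49.2% mitochondrial. Germ-like cells, which are not known to make steroids, had 189 core UMIs, of which 8.99% were *Star* (5.33–14) and 19.6% *Hsd3b1* (14.2–26).

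Sertoli-like cells had another make-up. Of their 710 core UMIs, 34.2% (30.7–37.8) were *Hsd3b1* and 19.4% (16.6–22.5) *Star*, against 22.7% *Cyp11a1* and 23.7% *Cyp17a1*. The interval of *Hsd3b1* lay above those of cluster 8, cluster 6 and the germ-like cells, and that of *Star* above the same 3. The interval of *Hsd3b1* overlapped that of the 45 core UMIs in barcodes with fewer than 200 genes. It also overlapped those of perivascular-like, erythroid-like, endothelial-like and rete testis-like cells, which had 26 core UMIs or fewer. The interval of *Star* overlapped those of the same barcodes (2.48–21.2), of interstitial-like and of coelomic epithelium-like cells (10.6–29.3), and of other small classes. With the Sertoli-like cells of more than 2 core UMIs left out, 809 cells had 496 core UMIs, of which 34.5% were *Hsd3b1* and 20% *Star*. In the 698 cells with at most 1 core UMI, 31.8% (26.3–37.6) of 274 were *Hsd3b1* and 17.5% (13.2–22.5) *Star*, and there the interval of *Star* overlapped that of the germ-like cells. Per cell, *Hsd3b1* had 0.282 UMIs in Sertoli-like, 0.147 in germ-like and 0.051 in interstitial-like cells, while *Cyp17a1* had 0.195, 0.271 and 0.126. At equal depth *Hsd3b1* was seen in 7.08% of Sertoli-like, 2.8% of interstitial-like and 2.02% of germ-like cells, against 21.8, 4.58 and 13.9% as read. Median depth was 14321 UMIs in Sertoli-like, 9289 in interstitial-like and 36155 in germ-like cells. Interstitial-like cells had 508 core UMIs, of which 14.6% (11.6–17.9) were *Star* and 13.6% (10.7–16.9) *Hsd3b1*.

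Between Sertoli-like and interstitial-like cells, 2 of the 8 genes were at least 2-fold higher in Sertoli-like cells, *Hsd3b1* (ratio 2.35) and *Fdxr* (3.85), against 9.73% of 13400 measured genes. None was at least 2-fold lower, against 8.9%. Against germ-like cells, 4 of 8 were at least 2-fold higher in Sertoli-like cells, *Star* (2.26), *Hsd3b1* (2.58), *Scarb1* (2.72) and *Fdxr* (19.6), where 19.5% of 13507 measured genes were. *Fdxr* was the member that set Sertoli-like cells apart most, and 76.7% of these cells still had a UMI of it at equal depth. The other gene of its step, *Fdx1*, was at 67.5 CPM (63.1–72.1) in Sertoli-like cells and at 71.8 CPM in peritubular myoid-like cells, which did not differ beyond counting error.

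The rest of the pathway was read from 6 lists of genes. The counts in Leydig-like over all other cells are to be read against the 4.2% of all measured genes that were higher and the 9.04% that were lower. For cluster 8 over cluster 6 these shares were 4.2% and 8.78%, and for cluster 6 over interstitial-like cells 3.9% and 4.88%. Cholesterol synthesis moved as a whole, as 20 of 22 measured genes were at least 2-fold higher in Leydig-like than in all other cells, none was lower and the median ratio was 6.13. *Fdps*, which makes farnesyl diphosphate, was at 1962 against 115 CPM (ratio 16.3), *Tm7sf2*, a sterol reductase, at 101 against 4.4 CPM (11.3) and *Lss*, the lanosterol synthase, at 131 against 9.5 CPM (9.4). In cluster 8 over cluster 6 the same list gave 20 of 22 higher with a median ratio of 3.3, led by *Tm7sf2* (4.94), and in cluster 6 over interstitial-like cells 18 of 22 with a median of 2.57, led by *Fdps* (6.32). In Sertoli-like over interstitial-like cells 2 of 22 were higher and 2 lower, near the 9.73% and 8.9% of all measured genes.

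Cholesterol delivery had 8 of 22 genes higher in Leydig-like than in all other cells and none lower, with a median ratio of 1.51. The cholesterol exporter *Abca1* was at 82.8 against 19.1 CPM (3.64) and the scavenger receptor *Cd36* at 33.7 against 0.983 CPM. In cluster 8 over cluster 6, 4 of 22 were higher, led by *Cd36* (3.95), *Apoe* (3.77) and *Nceh1* (3.46), and in cluster 6 over interstitial-like cells 5 were higher and 1, *Lrp1*, was lower. Electron transfer partners other than the 8 genes had 4 of 10 higher and none lower, namely *Pgrmc1* (ratio 3.69), *Me1* (3.2), *Cyb5r3* (3.2) and 1 other. *Me1*, which makes NADPH in the cytosol, was at 799 CPM in Leydig-like and at 795 CPM in Sertoli-like cells, against 81.3 CPM in interstitial-like cells.

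Other steroid-converting enzymes had 2 of 12 measured genes higher and 3 lower in Leydig-like cells, with a median ratio of 1. *Hsd17b7*, which also acts in cholesterol synthesis, was at 131 against 10.4 CPM (8.86), and *Hsd17b12* at 149 against 66.9 CPM (2.15). *Hsd17b3* was at 4.22 against 75.7 CPM (0.114) and *Hsd17b1* at 3.88 against 46.3 CPM (0.173). Their highest values were in Sertoli-like cells, with *Hsd17b3* at 274 CPM in 93.3% of cells and *Hsd17b1* at 168 CPM in 80.3% of cells. The third that was lower, *Hsd11b2*, was at 326 CPM in interstitial-like cells, 98.3 CPM in cluster 6 and 3.91 CPM in cluster 8.

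Regulators of steroidogenesis had 6 of 25 genes higher and 4 lower in Leydig-like than in all other cells, with a median ratio of 0.953. *Lhcgr* (263 against 0.716 CPM), which is also one of the markers that named the class, *Cebpb* (527 against 36 CPM) and *Nr5a1* (225 against 30.4 CPM) led those that were higher. *Pdgfa* (6.58 against 146 CPM) and *Pdgfra* (41 against 124 CPM), the latter one of the interstitial markers, were among those that were lower. In cluster 8 over cluster 6, 4 of 24 were higher, led by *Gata6* (3.14), and 7 lower, led by *Pdgfra* (0.179), *Ptch1* (0.209) and *Gli1* (0.218), the last a target and the other a receptor of hedgehog signalling. *Nr5a1* was at 74.1 CPM in Sertoli-like cells, where 62.3% had a UMI. Among the 9 measured genes of the list of other P450 genes, *Cyp26b1*, which degrades retinoic acid, was higher (237 against 25.8 CPM) and *Cyp2s1* lower. P450 genes outside that list were higher too, among them *Cyp11b1* (ratio 15.4), *Cyp21a1* (11.6) and *Cyp51* (8.67).

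Fetal Leydig cells share much of their enzyme set with the adrenal cortex, and genes that are usual for the latter were found in part of cluster 8. *Cyp21a1*, the 21-hydroxylase, was at 94.5 CPM (84.3–106) with a UMI in 31.1% of cells, *Cyp11b1*, the 11-hydroxylase, at 132 CPM (120–145) in 44.7% of cells, and *Mc2r*, the ACTH receptor, at 46.6 CPM in 59.8% of cells. *Cyp11b2*, which marks the outer adrenal cortex, had 0 UMIs. In cluster 6, *Cyp21a1* had 2 UMIs and *Cyp11b1* none, while *Mc2r* was at 10.8 CPM, against 1.86 CPM in interstitial-like cells. *Akr1b7* was at 19.6 CPM in cluster 8 and at 4.22 CPM in cluster 6. It was higher in Sertoli-like cells, at 45.3 CPM, against 1.93 CPM in interstitial-like and 0.454 CPM in germ-like cells.

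The 8 genes were also read in the cells of cluster 8 with and without these hydroxylases. UMIs of both *Cyp21a1* and *Cyp11b1* were in 20 cells with a median of 36811 UMIs, of one of them in 60 cells (22736.5 UMIs) and of neither in 52 cells (19720 UMIs), so that depth differed between these sets. *Star* was at 2272, 2168 and 1824 CPM in these sets in turn, *Cyp11a1* at 10994, 10765 and 11077 CPM, and *Cyp17a1* at 15892, 15275 and 14830 CPM. *Hsd3b1* was at 3431, 3193 and 3049 CPM, and *Scarb1* at 1523, 1524 and 1157 CPM. *Fdx1* was at 5190 (5021–5364), 5957 (5836–6080) and 5323 CPM (5188–5462), *Fdxr* at 1246, 1237 and 1244 CPM and *Por* at 219, 203 and 188 CPM. *Star*, *Hsd3b1*, *Cyp17a1*, *Scarb1* and *Por* were lowest in the cells with neither hydroxylase, with intervals that overlapped the next set for *Hsd3b1* and *Por*. *Cyp11a1*, *Fdx1* and *Fdxr* were not lowest there. The share of all measured genes that were lowest in these cells was not computed, so this order is not read as particular to the 8 genes. *Insl3*, the Leydig marker, was at 665, 652 and 707 CPM.

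Lastly, genes were sought whose pattern over the 16 clusters was most like that of each member, by Pearson's r of log2(CPM + 5) among 6459 genes with at least 50 CPM in a cluster. The clusters share 1 library, and these values describe likeness only. *Star* was most like *Fdx1* (0.982), *Hao2* (0.982) and *Crhr1* (0.981), and *Cyp11a1* most like *Crhr1* (0.986), *Insl3* (0.979) and *Fdx1* (0.974). *Hsd3b1* was most like *Cyp17a1* (0.986), *Insl3* (0.982) and *Mgarp* (0.98). *Cyp17a1* and *Fdx1* were at 0.989 with each other, and both had *Insl3* (0.991) and *Crhr1* (0.987) as the other genes most like them. *Fdxr* was most like another set, *Aldh1b1* (0.96), *Acsbg1* (0.96) and *Pank1* (0.952). *Scarb1* was most like *Cox6a1* (0.948), *Mal* (0.938) and *Sez6l2* (0.938), and *Por* most like *Hsd17b7* (0.9), *Slc45a3* (0.898) and *Dhcr7* (0.889), 2 of which act in cholesterol synthesis. Among the 8 genes themselves, r ran from 0.572 for *Fdxr* and *Por* to 0.989 for *Cyp17a1* and *Fdx1*.

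The filter on outlying barcodes removed cells of this class. When the barcodes were clustered without it, 345 were Leydig-like, and 43 of them (12.5%, 9.17–16.4) were ones the filter takes out, 39 for a high mitochondrial share and 9 for a high UMI total. Over all 4845 barcodes of that clustering it takes out 21.1%. Of the 1306 Sertoli-like ones it takes out 420 (32.2%, 29.6–34.8), 373 of them for a low UMI total. In those 43 barcodes the sum of the 4 core genes had a median of 34036 CPM of a cell, against 20296 CPM in the other 302. *Star* was at 2268 CPM there and *Cyp17a1* at 16066 CPM, against 1386 and 10715 CPM in the other 302. The levels given for Leydig-like cells are therefore lower than they are without that filter.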

How the data were processed

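Suspensions of whole fetal testes were run on a Chromium controller with 10000 cells loaded, and 3′ libraries were sequenced. The deposited values are raw counts of UMIs for each gene in each barcode. According to the methods, the authors obtained them by running Cell Ranger against the mouse genome mm10, to which a YFP sequence had been added. The methods and the processing notes (3.0.2 and 3.1.0) name different versions of it, so the version is uncertain. Depth was 501 to 143197 UMIs per barcode and 72595083 UMIs in all. Intervals and limits cover counting error only.

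The processing was rebuilt from the study's methods. Barcodes with fewer than 200 genes (372) were set aside, 204 (4.04% of the rest) were removed as doublets by the share of simulated doublets among their neighbours, and 1024 outside 3 median absolute deviations of a quality measure were removed. Counts of the kept cells were normalized with sctransform 0.4.2 in Seurat 5.3.0 (R 4.3.3), and 3000 variable genes without the 8 members, 30 components and a resolution of 0.8 gave 16 clusters. A cluster was named where its markers lay on average 1 log2 unit above the other clusters and 3 or more were seen in 25% of its cells, unless its leading 10 genes spoke against the name. Sums, ratios on CPM + 5 (genes seen in 10 or more cells) and thinning to 5000 UMIs (3000 as an alternative) were computed in Python 3.11.15 with numpy 2.4.6 and scipy 1.17.1, with exact Poisson and Clopper-Pearson intervals. The scripts were tested on simulated data. No test between groups was run, since there is 1 library.

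The 8 genes, the marker lists and the pathway lists were chosen with earlier results of these data known. Named from each list were the 3 genes with the largest ratio and the 3 with the smallest among those past 2-fold, together with *Hsd17b1*, *Hsd17b3*, *Hsd17b12*, *Nr5a1*, *Lhcgr* and *Cyb5a*. Also named were the Leydig and adrenocortical markers and, for each member, the 3 genes most like it. *Hsd3b6* and the genes shown for the 3 groups of cluster 6 were chosen after their values were seen. Some genes that this rule names are not reported here. Genes listed but not found by symbol in the matrix were *Hsd11b3*, *Sts* and *Fdx1l*. Alternatives changed the filters, the doublet rate, the clustering and naming, the depth of thinning and the pseudocount. Positions are from GENCODE M21, and promoter windows are from RefSeq.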

Additional observations from a re-analysis of the deposited data

Results flagged for a closer look

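Of 43 barcodes that the filter on outlying barcodes removed and that were Leydig-like when all barcodes were clustered without it, 42 held UMIs of *Star*, *Cyp11a1*, *Hsd3b1* and *Cyp17a1* together. They were flagged because they carry a signal of the 8 genes in barcodes that no comparison between cell classes in the report uses. Their median mitochondrial share was 17.6%, against 9.04% in the 302 Leydig-like barcodes that the filter kept, and their median depth was 23220 against 16430 UMIs. *Cyp11a1* was at 12644 CPM (12468–12821) in them and at 7493 CPM (7423–7565) in the 302, *Scarb1* at 1769 against 953 CPM, and *Fdxr*, the least different of the 8 by its ratio, at 1128 against 1014 CPM. The part of mitochondrial share in these differences was not tested.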

How the results depend on the processing

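No paired analysis was possible because there is 1 library and no test. The count of members at least 2-fold higher in Leydig-like than in other cells was 8 under every alternative run, while 3.58 to 6.09% of measured genes were. The share of Leydig-like cells with all 4 core genes, 71.6%, was 78.8% with a limit of 5 median absolute deviations, 78% without that filter, 90.05% with cells classed singly by their markers, 65% after thinning and 100% in cluster 8 alone, which was added after the data were seen. The share of other cells with all 4, 0.2%, was 0.844% without the filter, 1.52% with single cells classed, 0% after thinning and 2.82% with cluster 8 alone as Leydig-like. The share of the 8 genes' UMIs in Leydig-like cells, 91.8%, was 93.7% at 5 median absolute deviations, 92.4% without the filter, 91.4% with no doublets removed, 92% at a higher doublet rate, 65.4% with single cells classed and 75.8% for cluster 8 alone. The median of members per Leydig-like cell, 7, was 8 in cluster 8 alone. The split of the class into cluster 8 (132 cells) and cluster 6 (188 cells) moved too. A resolution of 0.4 gave 1 cluster of 316 cells, and a resolution of 1.2 gave 132 and 190. Log normalization gave 124 and 186, and the higher doublet rate gave 130 and 181. With no doublets removed, the clusters had 187 and 144 cells, and without the outlier filter 183 and 162. A limit of 5 median absolute deviations gave Leydig-like clusters of 184, 167 and 22 cells, the last with a median of 1286 UMIs per cell. Values given for cluster 8 or 6 hold for the main setting only. The CPM of single genes moved by more than their counting intervals in 60 of 118 comparisons with an alternative and by a factor of 0.79 to 1.55. Levels within 1 class have no direction. The ratios between cluster 8, cluster 6, interstitial-like and Sertoli-like cells were not among these comparisons. The factor passed 1.5 only in cluster 8 alone, for *Star* (2076 CPM), *Scarb1* (1402 CPM) and *Cyp11a1* (10915 CPM). The number of cells limits the small classes, as the endothelial-like and rete testis-like values rest on 19 cells each.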
